A study of Mus musculus with 63 samples.

Results

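Chemokines are small secreted proteins that steer the movement of immune and other cells, and the genes described here are 9 chemokine ligands associated with glia of the brain: Ccl2, Ccl3, Ccl4, Ccl6, Ccl9, Ccl12, Cxcl10, Cxcl12 and Cxcl16. They were chosen by name and are 9 of the 56980 genes listed in the count tables. RNA was sequenced from 4 populations sorted from the cortex of female C57BL/6J mice, aged 12 weeks, which had received a full-thickness thermal burn of 7 to 8% of the body surface on the flank or a sham procedure, and were examined 5 weeks later. All mice, sham mice included, had adeno-associated viruses injected into the motor cortex on both sides, one expressing eGFP from the CaMKII promoter and the other mRuby2 under the mDlx enhancer. CaMKII positive neurons (eGFP alone, 4 burn and 6 sham mice) and CaMKII-mDlx double-positive neurons (eGFP and mRuby2, 9 burn and 7 sham mice) came from the motor cortex. ACSA2-positive astrocytes (9 burn and 8 sham mice) and CD11b-positive microglia (8 burn and 7 sham mice) came from the cortex caudal to it, so in a comparison of a virus-labelled with an antibody-labelled population the region and the population cannot be told apart. ACSA2 is a surface antigen of astrocytes and CD11b an integrin of microglia and other myeloid cells. These 58 of the 63 libraries were used, leaving out mouse 3 and the double-positive library of mouse 8 as the study did. In such bulk libraries, fewer cells of a type and less RNA per cell cannot be told apart. The tissue was dissociated, cleared of myelin and sorted for live cells before RNA was extracted. Levels in the tissue and changes during this handling therefore cannot be told apart.

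Chemokines signal through G protein-coupled receptors on the cells they attract, and atypical receptors remove them from the tissue. In the healthy brain most inflammatory CC chemokines are low, and microglia are the cells best known to make them when stimulated. Cxcl12 is a homeostatic chemokine made by endothelial and stromal cells and known for holding progenitors and positioning migrating neurons through its receptor Cxcr4. Ccl2 and Ccl12 attract monocytes through Ccr2. Ccl3 and Ccl4 are closely related inflammatory chemokines, and Ccl3 acts on Ccr1. Ccl6 and Ccl9 are rodent ligands of Ccr1. Cxcl10 is an interferon-induced ligand of Cxcr3 on T cells, and Cxcl16 is a ligand of Cxcr6 that is made as a membrane protein and can be shed.

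Levels are given as CPM, in which the counts of every library are scaled to the same sum, and as CPM per kilobase of exon where genes are compared with each other. The total count of the libraries used ran from 13346143 to 134703744, with a median of 24339895.5, so that 3 counts, the limit that a count of 0 allows, were 0.0223 to 0.225 CPM. This limit covers counting error only. Libraries were sequenced in 3 batches, and batch 3 alone held both burn and sham mice in numbers that could be compared in all 4 populations. The summed level of 10 microglial markers was 23942 to 37564 CPM in CD11b-positive libraries and 20677 to 38079 CPM in the libraries labelled as double-positive neurons, in which 8 pan-neuronal markers summed to 7.20 to 32.5 CPM. The double-positive libraries thus went against their label, and they are named by their sort and not as neurons from here on. The CaMKII positive libraries also went against theirs, with 14512 to 27265 CPM of astrocyte markers, 4557 to 12839 CPM of endothelial markers, 540 to 2707 CPM of microglial markers and 34.9 to 158 CPM of pan-neuronal markers. ACSA2-positive libraries held 38996 to 54033 CPM of astrocyte markers and 44.5 to 191 CPM of microglial markers.

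In the annotation (GENCODE M21, build GRCm38), 7 of the 9 genes lie on chromosome 11. Among the protein-coding genes of RefSeq, Ccl9, Ccl6, Ccl3 and Ccl4 follow each other there with no other between them, Ccl3 on the minus strand beside Ccl4 on the plus strand. In the same order Ccl2 lies next to Ccl7, and Ccl12 between Ccl11 and Ccl8. Cxcl16 is also on chromosome 11, Cxcl10 is on chromosome 5 and Cxcl12 on chromosome 6. The deposited tables are of build GRCm39, so no gene positions of that build are given. Exon sequence of Cxcl16 overlapped the opposite-strand gene Zmynd15 over 18.3% of its length, and that of Cxcl10 overlapped Art3 over 5.91%. Whether counting used the strand is not given in the sources used here, so the counts of Cxcl16 and Cxcl10 may include reads from those neighbours. The other 7 genes had no such overlap, and in windows of 50 bases their exons shared no sequence with other genes, except for 1.97% of the windows of Ccl9.

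The 250 bases before the annotated start are printed for 3 genes that stand for the kinds of ligand in the set: an interferon-induced ligand (Cxcl10), the most abundant inflammatory ligand of the microglial libraries (Ccl3) and the homeostatic ligand (Cxcl12). Sequences are from RefSeq, build GRCm38.p6, given 5′ to 3′ on the strand of the gene, and the table used here holds 6 of the 9 genes. Capitals mark matches, on either strand, to the NF-kB motif, to the interferon-stimulated response element and to the AP-1 motif spelled TGANTCA, where N is any base. They are from chr5:92348890-92349139 (minus strand), chr11:83649379-83649628 (minus strand) and chr6:117168285-117168534 (plus strand), in that order.
Cxcl10: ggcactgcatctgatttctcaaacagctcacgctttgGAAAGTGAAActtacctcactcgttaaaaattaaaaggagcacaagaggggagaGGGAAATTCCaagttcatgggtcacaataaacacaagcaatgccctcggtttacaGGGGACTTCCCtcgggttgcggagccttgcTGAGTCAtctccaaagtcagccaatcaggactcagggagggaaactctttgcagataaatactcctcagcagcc
Ccl3: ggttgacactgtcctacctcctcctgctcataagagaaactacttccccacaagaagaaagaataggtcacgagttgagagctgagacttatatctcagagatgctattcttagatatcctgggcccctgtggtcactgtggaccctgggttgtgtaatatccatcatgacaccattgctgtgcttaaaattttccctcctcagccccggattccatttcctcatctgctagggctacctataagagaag
Cxcl12: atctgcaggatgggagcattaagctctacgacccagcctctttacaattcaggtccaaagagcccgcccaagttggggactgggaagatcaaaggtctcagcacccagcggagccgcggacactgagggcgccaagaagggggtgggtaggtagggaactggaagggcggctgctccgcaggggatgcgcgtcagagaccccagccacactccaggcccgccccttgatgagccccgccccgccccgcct
The Cxcl10 window held 3 NF-kB matches, of which 2 overlap each other, 1 interferon-stimulated response element and 1 AP-1 match. Of 32851 promoters of the same length, 7.25% held an NF-kB match, 2.98% the interferon element and 6.75% an AP-1 match. The windows of Ccl3 and Cxcl12 held no match, which says nothing about the factors that bind there. Of the other 3 genes in the table, Ccl9 held 1 NF-kB and 1 AP-1 match.

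Ccl3 and Ccl4 were the highest of the 9 ligands in the CD11b-positive and the double-positive libraries. Ccl3 was 138 CPM at the lowest, 243 at the median and 402 at the highest of the 15 CD11b-positive libraries, and 128, 228 and 437 CPM over the 16 double-positive libraries. Ccl4 was 97.6, 172 and 253 CPM in the former and 72.9, 173 and 293 CPM in the latter. Per kilobase, Ccl3 was 317 and Ccl4 260 CPM at the median of CD11b-positive libraries, and their ranges overlapped, Ccl3 being the higher in 11 of 15. A gap followed: the lowest Ccl4 level, 148 CPM per kilobase, was above the highest Ccl12 level, 73.7 CPM per kilobase.

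Below Ccl3 and Ccl4, the other CC ligands and Cxcl16 formed a middle tier whose neighbours could not be separated by their ranges. In CD11b-positive libraries, Ccl2 was 19.0 to 68.9 CPM (median 47.9), Ccl12 14.3 to 39.6 CPM (median 26.4), Ccl6 46.7 to 85.2 CPM (median 62.4) and Ccl9 79.5 to 133 CPM (median 94.6). In the same libraries, Cxcl16 was 64.2 to 107 CPM (median 74.7). Ccl12 is the shortest of the 9 genes and Cxcl12 the longest, so the order changed once length was taken into account: medians were 49.2 CPM per kilobase for Ccl12, 42.1 for Ccl2, 34.7 for Ccl6, 31.1 for Ccl9 and 24.7 for Cxcl16. Each of these ranges overlapped the next. Ccl12 was above Ccl2 in 9 of 15 CD11b-positive libraries but in 16 of 16 double-positive libraries, where the medians were 64.7 and 39.1 CPM per kilobase.

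Cxcl10 and Cxcl12 were at the bottom of the order in both microglia-rich populations. Cxcl10 ran from 1.62 to 17.2 CPM (median 5.64) in CD11b-positive libraries and from 6.79 to 25.2 CPM (median 11.8) in double-positive libraries. Cxcl12 ran from 0 to 21.8 CPM (median 6.65) in the former and from 3.19 to 181 CPM (median 10.3) in the latter. By the ratio of its highest to its lowest library, Cxcl12 was the most variable of the 9 in double-positive libraries.

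**Figure D1:**
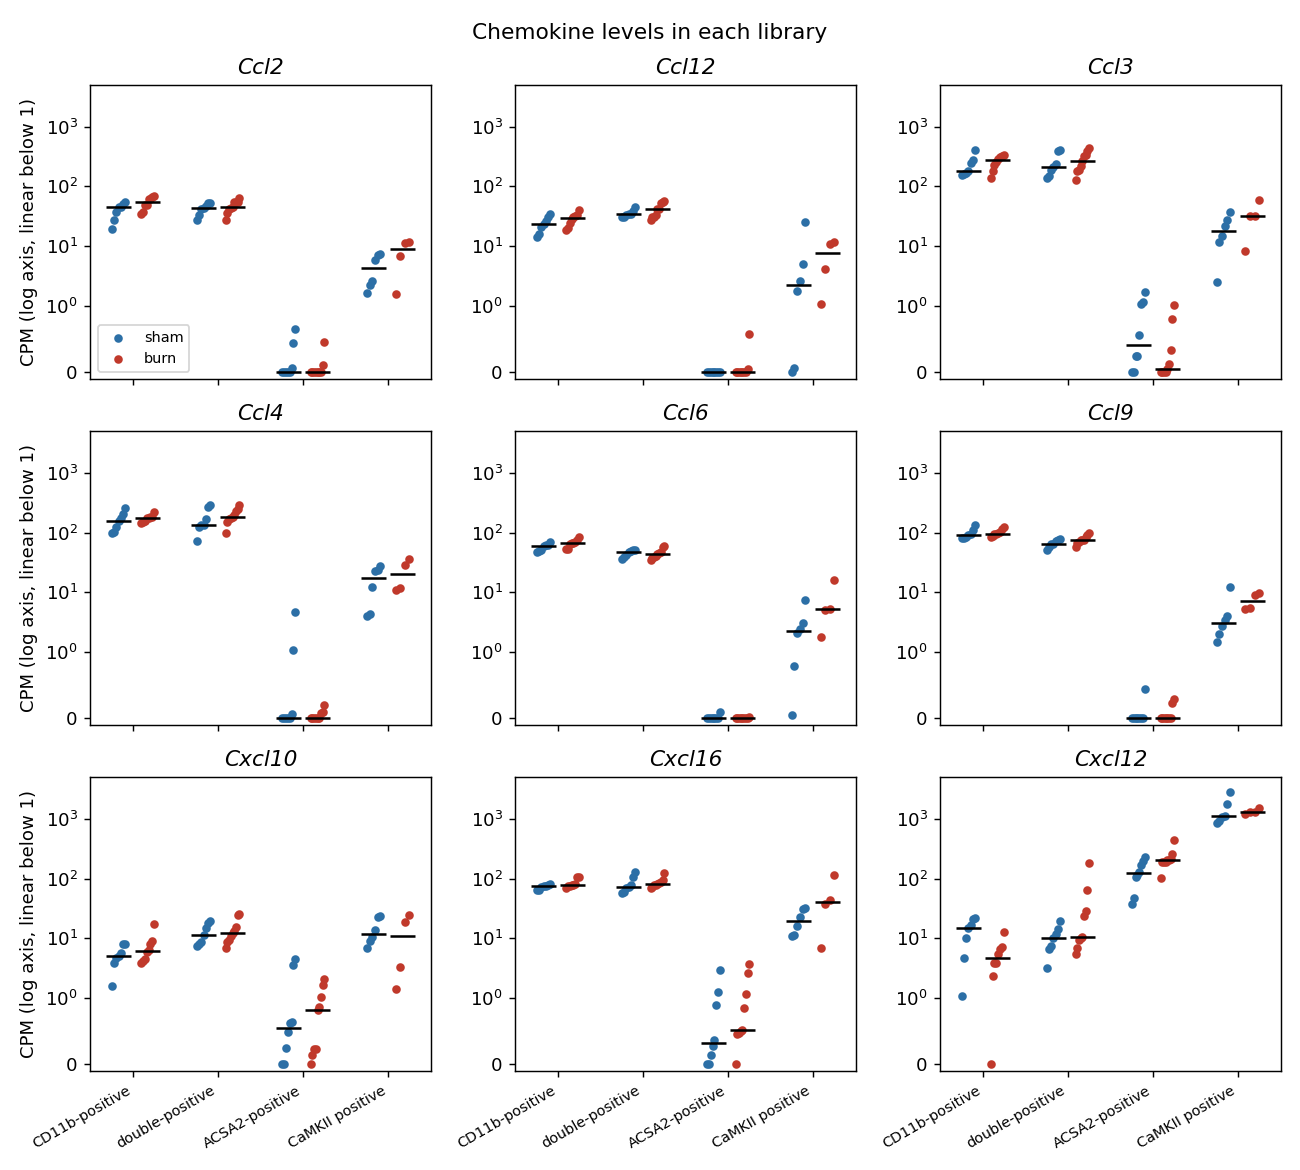
Level of each of the 9 chemokines in CPM in every library used, by sorted population and by burn or sham, on an axis that is linear below 1 CPM and logarithmic above it, with bars at the group medians. Ccl3 and Ccl4 sit at 72.9 CPM or more in every CD11b-positive and double-positive library and at 4.72 CPM or less in every ACSA2-positive library, while Cxcl12 is highest in CaMKII positive libraries, at 863 to 2817 CPM.

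ACSA2-positive libraries held nearly none of the 8 ligands other than Cxcl12. Ccl6 had 4 counts in all, in 2 of 17 libraries, Ccl12 had 16 counts in 2 libraries, Ccl9 23 counts in 3 libraries and Ccl2 41 counts in 5 libraries. Ccl3 was 0 to 1.70 CPM, Ccl4 0 to 4.72 CPM, Cxcl16 0 to 3.72 CPM and Cxcl10 0 to 4.53 CPM. Cxcl12, in contrast, was 38.2 CPM at the lowest, 187 at the median and 442 at the highest. Over 36 chemokine ligands, the 9 made up a median of 8.61% of the CPM per kilobase in ACSA2-positive libraries, where Cxcl14, a ligand of epithelia and glia, made up 86.0%, against 93.6% in CD11b-positive and 95.6% in double-positive libraries.

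CaMKII positive libraries were the richest in Cxcl12, with 863 CPM at the lowest, 1255 at the median and 2817 at the highest of 10 libraries. All 9 ligands were detected there, at levels between those of the ACSA2-positive and the CD11b-positive libraries apart from Cxcl12 and Cxcl10. Medians were 27.0 CPM for Cxcl16, 24.9 for Ccl3, 17.4 for Ccl4, 12.0 for Cxcl10, 6.36 for Ccl2, 4.58 for Ccl9, 3.42 for Ccl12 and 2.76 for Ccl6. The spread was wide: Cxcl16 ran from 6.90 to 114 CPM and Ccl3 from 2.55 to 58.5 CPM. The 9 made up 57.3% of the CPM per kilobase of the 36 ligands, with Cxcl12 at 36.8% and Cxcl14 at 31.1%.

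The populations were compared with edgeR's quasi-likelihood test on the counts, with batch and treatment as covariates. Calls required a p.adj, which is the p-value after Benjamini-Hochberg correction for all genes tested, no higher than 0.05 together with a log2 fold change (log2FC) of 1 or more in size. ACSA2-positive and CD11b-positive libraries differed in all 9 ligands, in a comparison that called 54.2% of all genes tested. Cxcl12 was higher in ACSA2-positive libraries, 23.2-fold (log2FC = 4.54, SE 0.46, p.adj = 1.16e-10), and no ACSA2-positive library fell to the level of any CD11b-positive one. The other 8 were lower, against 21.8% of all genes. Cxcl10 showed the smallest of these differences (log2FC = −2.49, SE 0.54, p.adj = 1.32e-04), and it was the 1 ligand whose ranges overlapped. Ranges failed to overlap for 25.1% of all genes. Since several ligands were at or near 0 in ACSA2-positive libraries, ratios were taken from summed counts, with 95% intervals for counting error only. By these, CD11b-positive libraries held 596 times as much Ccl3 (517 to 689), 599 times as much Ccl4 (508 to 712), 98.5 times as much Cxcl16 (89.3 to 109) and 7.13 times as much Cxcl10 (6.50 to 7.83). The ratio for Ccl4 rested on 1 library, since sham mouse 16 held 97 of the 141 ACSA2-positive counts, and without it CD11b-positive libraries held 1843 times as much (1373 to 2536). Leaving out the library with the most counts in the same way gave 753 times as much Ccl3, 116 times as much Cxcl16 and 8.59 times as much Cxcl10.

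CaMKII positive libraries were above ACSA2-positive libraries in all 9 ligands, in a comparison that called 16.2% of genes and 12.7% as higher. Cxcl12 was 7.38-fold higher (log2FC = 2.88, SE 0.26, p.adj = 3.05e-10), and the log2FC of the other 8 ran from 3.26 for Cxcl10 to 8.60 for Ccl6. For 5 of the 9 the ranges did not overlap, against 6.28% of all genes. CaMKII positive and double-positive libraries, both from the motor cortex, differed in 8 of 9 ligands, against 45.8% of all genes (26.4% higher and 19.4% lower in CaMKII positive libraries). Cxcl12 was 100-fold higher in CaMKII positive libraries (log2FC = 6.65, SE 0.47, p.adj = 1.17e-12) and 7 were lower, from −1.74 on the log2 scale for Cxcl16 to −3.95 for Ccl9. For 7 of the 9 the ranges did not overlap, against 20.3% of all genes. Cxcl10 was the ligand for which no difference was called (log2FC = −0.40, 95% interval −1.14 to 0.34, p.adj = 0.348), with medians of 12.0 CPM in CaMKII positive and 11.8 CPM in double-positive libraries. Size factors by relative log expression in place of TMM moved the median log2FC of all genes in this comparison from 0.05 to 0.20 and changed no direction among the 9.

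The level of Cxcl12 followed the endothelial markers from library to library. In 16 double-positive libraries, log2 Cxcl12 and the log2 summed level of 10 endothelial markers had r = 0.98 and rho = 0.96, with permutation p = 1e-05 for each, the smallest these permutations can give, and adjusted p = 0.00015 for each over 30 relations. The values were r = 0.96 and rho = 0.85 in 17 ACSA2-positive libraries (permutation p = 1e-05 and 6e-05, adjusted p = 0.00015 and 0.0006). They were r = 0.94 and rho = 0.87 in 10 CaMKII positive libraries (permutation p = 0.00023 and 0.0024, adjusted p = 0.0014 and 0.014), and r = 0.83 and rho = 0.93 in 15 CD11b-positive libraries (permutation p = 0.00023 and 1e-05, adjusted p = 0.0014 and 0.00015). Without the 2 libraries farthest from the median of the marker sum, r was 0.94, 0.90, 0.75 and 0.80 in that order. Within batch 3 it was 0.81, 0.95, 0.98 and 0.92, with adjusted p from 0.0011 to 0.018 by permutation, so the relation held within the largest batch in all 4 populations. Both quantities are scaled to the same library totals.

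Among CaMKII positive libraries, Cxcl12 was 0.171 to 0.266 of the endothelial sum (median 0.205), and among ACSA2-positive libraries 0.164 to 0.272 (median 0.216). These ranges overlapped almost wholly although Cxcl12 itself was 7.38-fold higher in the former. The ratio was lower and more variable in the microglia-rich libraries, with medians of 0.111 in double-positive and 0.0642 in CD11b-positive libraries. Whether the endothelial RNA carried the Cxcl12 of any population was not tested.

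Cxcl12 also went with 8 mural cell markers in 3 of the 4 populations. With their summed level, r was 0.82 and rho 0.74 in ACSA2-positive libraries (permutation p = 0.00031 and 0.0011, adjusted p = 0.0015 and 0.0082), 0.80 and 0.70 in double-positive libraries (permutation p = 0.00016 and 0.0032, adjusted p = 0.0014 and 0.014) and 0.68 and 0.61 in CD11b-positive libraries (permutation p = 0.0051 and 0.019, adjusted p = 0.012 and 0.03). Without the 2 farthest libraries r was 0.48, 0.55 and 0.54 in that order, and within batch 3 it was 0.88 (adjusted p = 0.018 by permutation), −0.06 (adjusted p = 0.90) and 0.61 (adjusted p = 0.12). In CaMKII positive libraries r was −0.06 and rho −0.12 (permutation p = 0.87 and 0.76, adjusted p = 0.87 and 0.81).

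With 10 astrocyte markers the sign differed between populations. In CaMKII positive libraries r was −0.75 and rho −0.55 (permutation p = 0.014 and 0.10, adjusted p = 0.025 and 0.13), and in ACSA2-positive libraries −0.42 and −0.27 (permutation p = 0.092 and 0.29, adjusted p = 0.12 and 0.33). In CD11b-positive libraries r was 0.63 and rho 0.70 (permutation p = 0.013 and 0.0049, adjusted p = 0.024 and 0.016), and in double-positive libraries 0.48 and 0.62 (permutation p = 0.055 and 0.011, adjusted p = 0.075 and 0.021). Without the 2 farthest libraries r was −0.68, −0.44, 0.83 and 0.42 in that order. Within batch 3 it was −0.88 (adjusted p = 0.020 by exact permutation), −0.58, 0.47 and 0.35 (adjusted p = 0.15, 0.23 and 0.40 by permutation).

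**Figure D2:**
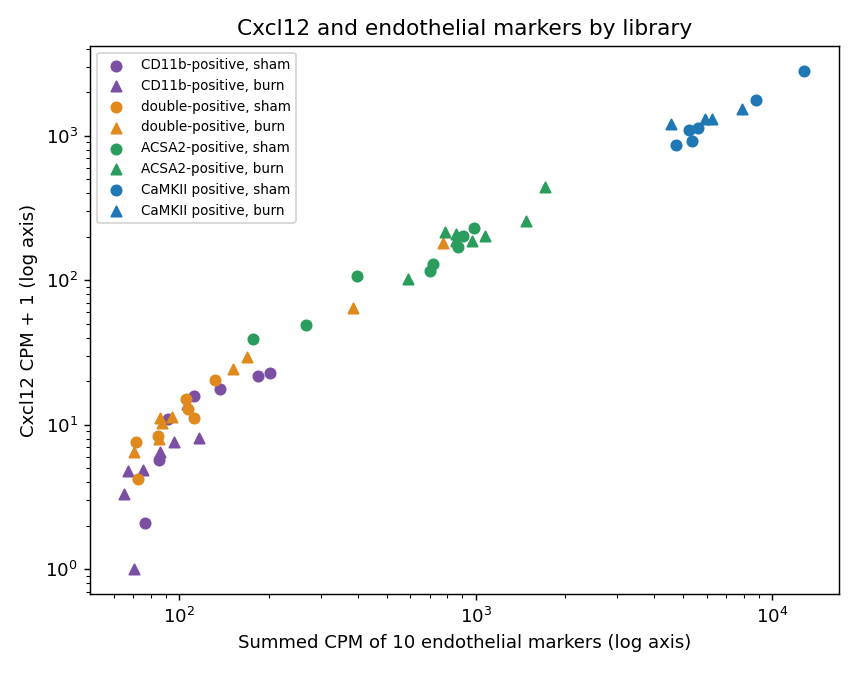
Cxcl12 against the summed level of 10 endothelial markers, each point 1 library, both axes in CPM on a log scale with 1 CPM added to Cxcl12, coloured by population. The ACSA2-positive and CaMKII positive libraries lie along 1 band, in which Cxcl12 is a median of 0.216 and 0.205 of the endothelial sum, and the CD11b-positive libraries lie under it.

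In CaMKII positive libraries the other ligands tended to follow the microglial markers. With the summed level of 10 microglial markers, which ran from 540 to 2707 CPM over the 10 libraries, r was 0.87 and rho 0.81 for Ccl2 (permutation p = 0.002 and 0.0069, adjusted p = 0.0066 and 0.021), and 0.82 without the 2 farthest libraries. For Cxcl16, r was 0.86 and rho 0.79 (permutation p = 0.0016 and 0.0087, adjusted p = 0.0066 and 0.021), and 0.75 without the 2 farthest. Within the 8 libraries of batch 3, r was 0.87 for Ccl2 and 0.92 for Cxcl16, with exact permutation p = 0.0081 and 0.0017 and adjusted p = 0.024 and 0.013, and by rank rho was 0.79 and 0.76 with adjusted p = 0.10 and 0.11 by exact permutation. Over all batches r was 0.76 to 0.84 for Ccl3, Ccl4, Ccl6 and Ccl12 and 0.63 for Ccl9. Cxcl10 stood apart, with r = 0.16 and rho = 0.14 (permutation p = 0.66 and 0.71, adjusted p = 0.70 and 0.79), −0.01 within batch 3 and 0.24 without the 2 farthest libraries. Whether these relations differ from each other was not tested.

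The double-positive and the CD11b-positive libraries, both rich in microglial markers, differed in 4 of the 9 ligands by the adjusted p. The same 4 had an unadjusted p under 0.05 by edgeR, as did 8840 of 28752 genes tested. The share of all genes past the adjusted p alone was not counted, for these ligands or for the marker lists below. Cxcl10 was 2.19-fold higher in double-positive libraries (log2FC = 1.13, SE 0.23, 95% interval 0.67 to 1.59, p.adj = 5.38e-04) and was the 1 ligand called, in a comparison that called 7.58% of all genes and 5.6% as higher. It was higher in the double-positive library of 12 of the 14 mice that had both. Ccl12 passed the adjusted p but not the fold, being higher in double-positive libraries (log2FC = 0.47, SE 0.12, p.adj = 0.00437) and in 11 of 14 mice. Its p.adj was 0.13 with all deposited libraries and stayed past the threshold under the other 6 alternatives. Ccl6 (log2FC = −0.52, SE 0.08, p.adj = 2.94e-05) and Ccl9 (log2FC = −0.49, SE 0.08, p.adj = 1.68e-05) were lower in double-positive libraries, and in 14 of 14 mice each. Ccl6 and Ccl9 are neighbours on chromosome 11 and both ligands of Ccr1. Other marker lists differed between these populations as well: the summed level of 9 markers of border macrophages and monocytes was 89.0 to 366 CPM (median 127) in double-positive and 99.6 to 554 CPM (median 356) in CD11b-positive libraries, and that of 10 astrocyte markers 502 to 1522 CPM against 202 to 365 CPM. Of 8 granulocyte and lymphocyte markers, 7 were called as lower in double-positive libraries (median log2FC of the 8 = −4.81), with a sum of 0 to 23.7 CPM (median 0.728) against 14.9 to 126 CPM (median 58.2). Of the 10 microglial markers, 8 passed the adjusted p and none the fold (median log2FC of the 10 = −0.25), with median sums of 24575 and 30810 CPM. Their part in the differences of the ligands was not tested.

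No difference was called for the other 5. The log2FC was 0.06 for Ccl3 (95% interval −0.20 to 0.33), and the estimates were 0.14 for Ccl4, 0.05 for Cxcl16 and −0.06 for Ccl2. For Cxcl12 it was 0.76 (95% interval −0.38 to 1.91) over all batches and −0.30 in batch 3 alone. All 9 ranges overlapped between the populations, and ranges failed to overlap for 0.278% of all genes.

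**Figure D3:**
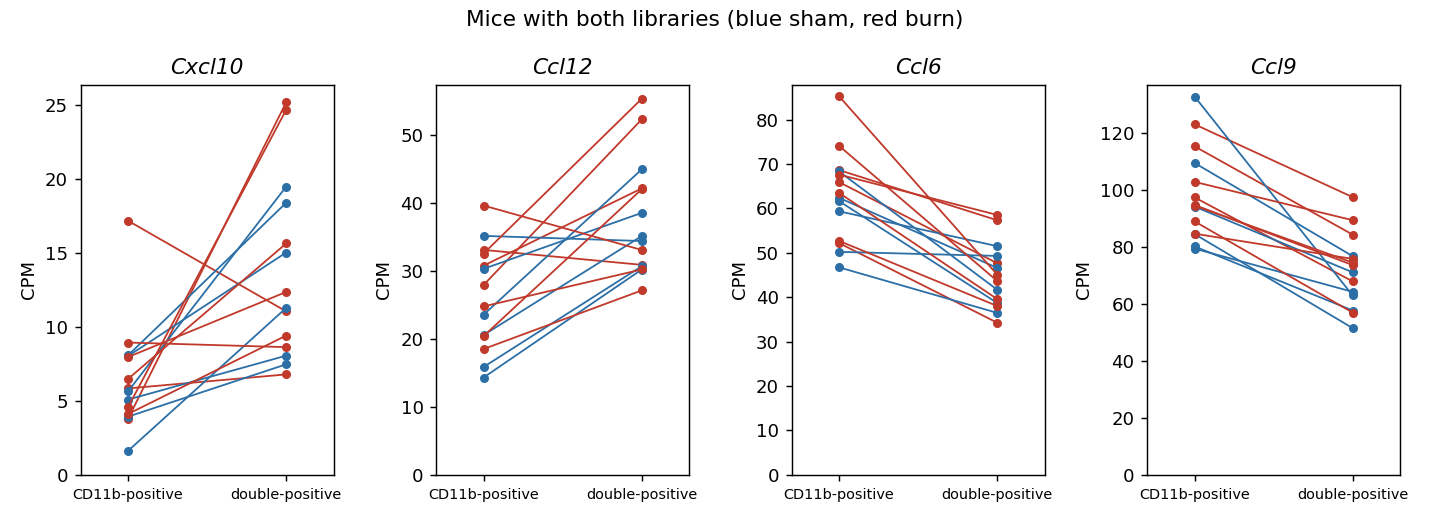
Level of Cxcl10, Ccl12, Ccl6 and Ccl9 in CPM in the CD11b-positive and the double-positive library of each of 14 mice, joined by lines, with burn and sham mice coloured apart. Lines rise for Cxcl10 in 12 and for Ccl12 in 11 mice, and fall for Ccl6 and Ccl9 in all 14.

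Over those 14 mice, Ccl3 was the ligand whose level in the double-positive library went most with its level in the CD11b-positive library (r = 0.82, rho = 0.78, permutation p = 0.00055 and 0.0013, adjusted p = 0.0049 and 0.012 over 9 ligands). Without the 2 mice farthest from the median r was 0.81, and in the 10 mice of batch 3 it was 0.76 with rho = 0.66 (permutation p = 0.012 and 0.043, adjusted p = 0.054 and 0.28). Ccl4 followed with r = 0.62 and rho = 0.47 (permutation p = 0.018 and 0.093, adjusted p = 0.081 and 0.26), and 0.55 without the 2 farthest mice. In batch 3 Ccl4 had the higher r, 0.81 with rho = 0.61 (permutation p = 0.0042 and 0.065, adjusted p = 0.038 and 0.28), and 0.43 without the 2 farthest mice. Cxcl10, the ligand that differed most between the populations, showed no such relation (r = −0.04, rho = −0.06, permutation p = 0.90 and 0.83, adjusted p = 0.90 and 0.83).

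The main question of the study was whether a burn leaves a lasting change in each population. None of the 9 ligands was called between burn and sham mice in any population by edgeR, with batch as a covariate, and none by DESeq2. The share of all genes that edgeR called was 0% in each population, although 1096 genes in CaMKII positive, 1872 in double-positive, 2984 in ACSA2-positive and 2036 in CD11b-positive libraries had an unadjusted p under 0.05, which is 3.9%, 7.01%, 10.7% and 7.81% of those tested. DESeq2 called 3, 2, 27 and 80 genes in that order. Among the ligands, 1 in CaMKII positive, 0 in double-positive, 2 in ACSA2-positive and 1 in CD11b-positive libraries had an unadjusted p under 0.05. Burn and sham ranges overlapped for every ligand in every population, and failed to overlap for 0.37% of all genes in CaMKII positive, 0% in double-positive, 0.0143% in ACSA2-positive and 0.0153% in CD11b-positive libraries.

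In CD11b-positive libraries, Ccl6 had the smallest p. It was 52.2 CPM at the lowest, 66.8 at the median and 85.2 at the highest in 8 burn mice, and 46.7, 59.3 and 68.3 CPM in 7 sham mice. The median was a little higher in burn mice, and the ranges overlapped (log2FC = 0.29, SE 0.11, 95% interval 0.05 to 0.52, p.adj = 0.639). Ccl2 was 34.6, 54.6 and 68.9 CPM in burn and 19.0, 44.8 and 54.6 CPM in sham mice (log2FC = 0.36, 95% interval −0.02 to 0.75), and Ccl12 18.5, 29.3 and 39.6 CPM against 14.3, 23.5 and 35.1 CPM (log2FC = 0.34, 95% interval −0.01 to 0.69). Both Ccr2 ligands had intervals that reached just below 0. Ccl9, which lies next to Ccl6, was 84.8, 96.2 and 123 CPM in burn and 79.5, 89.4 and 133 CPM in sham mice (log2FC = −0.00). Ccl3 was 138, 273 and 339 CPM in burn and 158, 183 and 402 CPM in sham mice (log2FC = 0.23). The estimate for Ccl4 was 0.01, for Cxcl16 0.19 and for Cxcl10 0.25, and for Cxcl12 it was −0.68 (95% interval −1.85 to 0.49). The estimates of 7 of the 9 were above 0, with a median log2FC of 0.23 against 0.00 over all genes tested. The markers of border macrophages and monocytes, all 9 of which had a median over 1 CPM, summed to 281 to 554 CPM (median 444) in burn and 99.6 to 428 CPM (median 328) in sham mice. The 13 immediate early genes summed to 22175 to 28323 CPM (median 23911) in burn and 18255 to 25574 CPM (median 20821) in sham mice, and the endothelial markers to 65.3 to 117 CPM (median 80.6) against 76.8 to 202 CPM (median 112). At the median, the first 2 sums were thus higher and the endothelial sum lower in burn mice, with ranges that overlapped in each case. Over all 15 libraries, the sum of the border markers had r = 0.57 and rho = 0.65 with Ccl2 (permutation p = 0.036 and 0.011, adjusted p = 0.059 and 0.021). Without the 2 farthest libraries r was 0.41, and within batch 3 it was 0.52 (adjusted p = 0.19 by permutation). For Ccl6, Ccl9 and Ccl12 r was 0.22, 0.19 and −0.12 (adjusted p = 0.51, 0.57 and 0.70 by permutation). The part of these marker lists in the burn estimates was not tested.

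The biological coefficient of variation, the part of the spread between replicates that counting does not account for, was 0.138 to 0.390 for 8 of the ligands in CD11b-positive libraries and 0.680 for Cxcl12, against a median of 0.563 over all genes tested. In double-positive libraries it was 0.15 to 0.408 for the 9, against 0.506. Genes were not matched for their level, so these values do not show that the ligands vary less than genes of like abundance.

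In ACSA2-positive libraries, Cxcl12 was 101 CPM at the lowest, 201 at the median and 442 at the highest in 9 burn mice, and 38.2, 122 and 229 CPM in 8 sham mice. Burn mice were higher at the median, and the ranges overlapped (log2FC = 0.60, SE 0.25, 95% interval 0.09 to 1.11, unadjusted p = 0.0242 and p.adj = 0.458 by edgeR). The endothelial marker sum was also higher at the median in burn mice, at 588 to 1708 CPM (median 860) against 177 to 988 CPM (median 709) in sham mice. The ratio of Cxcl12 to this sum had a median of 0.218 in burn and 0.204 in sham mice, and the part of the markers in the difference was not tested. Over 23 alternatives, each mouse left out and batch 3 alone among them, the log2FC stayed between 0.46 and 0.74. The other ligand with an unadjusted p under 0.05 in these libraries was Ccl12, which had counts in 2 of the 17 libraries, both of burn mice. Ccl6 had too few counts to be tested, so 8 of the 9 were tested here.

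In CaMKII positive libraries, Cxcl16 was 6.90, 38.3, 43.3 and 114 CPM in the 4 burn mice and 11.1 to 32.5 CPM (median 19.5) in 6 sham mice. Burn mice thus held both the lowest and the 3 highest values (log2FC = 1.11, SE 0.50, unadjusted p = 0.0444 and p.adj = 0.9999 by edgeR). Over 17 alternatives the log2FC ran from 0.42 to 1.61. Cxcl12 was 1210, 1299, 1307 and 1545 CPM in burn mice and 863 to 2817 CPM (median 1114) in sham mice (log2FC = −0.07). Ccl3 was 8.36, 31.4, 31.5 and 58.5 CPM in burn mice and 2.55 to 37.5 CPM (median 18.2) in sham mice, and the ranges overlapped. The median log2FC of the 9 was 0.77 against 0.02 over all genes tested. The microglial marker sum was 829 to 2707 CPM (median 1386) in burn and 540 to 1954 CPM (median 839) in sham mice, and its part in these estimates was not tested.

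In double-positive libraries no ligand had an unadjusted p under 0.05, and the estimates of all 9 lay between −0.03 and 0.22 on the log2 scale. Ccl3 was 128 CPM at the lowest, 261 at the median and 437 at the highest in 9 burn mice and 139, 209 and 406 CPM in 7 sham mice. Ccl2 was 27.7, 45.8 and 64.9 CPM against 27.9, 43.1 and 53.5 CPM, and Cxcl10 6.79, 12.4 and 25.2 CPM against 7.47, 11.3 and 19.5 CPM. In each case the sham range lay within the burn range. The estimate for Cxcl12 was 0.15 (SE 0.34) and depended on the batch term: without it the log2FC was 1.82 (p.adj = 0.626), batch 1 of these libraries holding 3 burn and no sham mice.

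**Figure D4:**
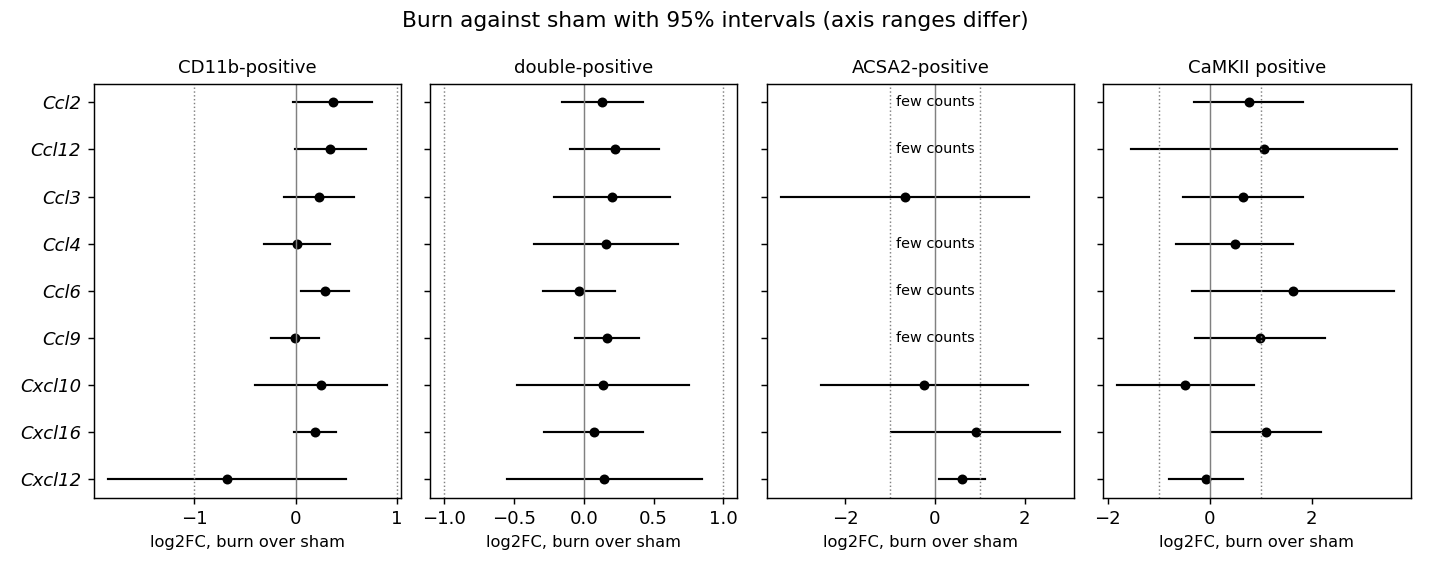
The log2FC of burn against sham mice for the 9 ligands in each sorted population, with 95% intervals from edgeR and dotted lines at the fold needed for a call. Ligands with counts in few of the libraries are marked as such. The interval of Cxcl12 is narrowest in ACSA2-positive and widest in CD11b-positive libraries, and no ligand passed the adjusted p in any population.

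The difference between populations in the effect of the burn was tested as an interaction of treatment and population. By edgeR, 0 of 9 ligands were called for CD11b-positive minus ACSA2-positive, for CaMKII positive minus double-positive or for double-positive minus CD11b-positive libraries, where the test called 0.00323%, 0.00977% and 0% of all genes. At an unadjusted p under 0.05 there were 4, 2 and 0 ligands, against 8.67%, 6.01% and 6.27% of all genes. The 4 were Ccl3, Ccl4, Ccl6 and Ccl12, all at or near 0 in ACSA2-positive libraries, where Ccl6 had 4 and Ccl12 16 counts and 97 of the 141 counts of Ccl4 were of 1 library, so no difference is read from them. The 2 were Ccl6 (unadjusted p = 0.0215 and p.adj = 0.765 by edgeR) and Cxcl16 (unadjusted p = 0.0449 and p.adj = 0.815 by edgeR). The estimate for Cxcl12 between CD11b-positive and ACSA2-positive libraries was −1.26 on the log2 scale (SE 0.65, p.adj = 0.621).

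Sequencing batch 3 was compared with batches 1 and 2, with treatment as a covariate. In double-positive libraries Cxcl12 was called as lower in batch 3 (log2FC = −2.24, SE 0.31, p.adj = 5.25e-04), against 1.12% of all genes called and 0.966% called as lower. Its level was 28.5, 63.7 and 181 CPM in the 3 libraries of batch 1, 11.9, 19.6 and 23.3 CPM in the 3 of batch 2, and 3.19 to 14.1 CPM (median 8.29) in the 10 of batch 3. The double-positive libraries of mice 2 and 10, chosen after seeing their values, held the 2 highest levels, and without them the log2FC was −1.42 (p.adj = 0.00301). Over all genes, that fit called 55 of 26030 as lower and 193 as higher, where the fit with all 16 libraries called 258 as lower and 40 as higher. Of the 10 endothelial markers, 8 were called as lower in batch 3 in the fit with all 16 libraries (median log2FC of the 10 = −1.87). Their sum was 169 to 777 CPM in batch 1, 107 to 152 CPM in batch 2 and 70.3 to 112 CPM in batch 3, and its part in the difference was not tested. Ccl3 was higher in batch 3 (log2FC = 0.87, SE 0.19, p.adj = 0.00917) and so was Ccl2 (log2FC = 0.46, p.adj = 0.0384), both below the fold for a call. With Cxcl12, these were the 3 ligands at an unadjusted p under 0.05 by edgeR, against 21% of all genes. Without mice 2 and 10, which leaves 14 libraries, the log2FC of Ccl3 and Ccl2 were 0.76 and 0.54, about as large, with p.adj of 0.0632 and 0.0563. In CD11b-positive libraries 0 of 9 ligands were called by edgeR, against 0.399% of all genes, and 2 had an unadjusted p under 0.05, against 14.7% of all genes. By edgeR, Ccl3 was the higher in batch 3 (log2FC = 0.61, p.adj = 0.131) and Ccl12 the lower (log2FC = −0.54, p.adj = 0.146). In ACSA2-positive libraries 0 of the 8 tested were called against 1.03% of all genes, with 4 at an unadjusted p under 0.05 against 17.1%, and in CaMKII positive libraries 0 of 9 against 0%, with 2 against 5.37%. DESeq2 called 0 ligands in these 3 populations as well. All burn effects above were fitted with batch as a covariate.

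Ccl3 and Ccl4, neighbours that are often induced together, did not keep a fixed ratio across batches. In double-positive libraries the ratio of Ccl3 to Ccl4 in CPM was 1.34 to 1.91 (median 1.54) in 10 libraries of batch 3 and 0.953 to 1.47 (median 1.12) in the 6 earlier ones. The mean log2 ratio was higher by 0.46 in batch 3 (two-sided exact permutation p = 0.000375 over 8008 arrangements, adjusted p = 0.0015 over 4 tests). In CD11b-positive libraries it was 1.31 to 2.17 (median 1.64) in 10 libraries of batch 3 and 0.893 to 1.54 (median 1.04) in the 5 earlier ones, a difference of 0.60 (two-sided exact permutation p = 0.0020 over 3003 arrangements, adjusted p = 0.0040). Within batch 3, burn and sham mice differed in the ratio by −0.06 in double-positive libraries (exact permutation p = 0.619, adjusted p = 0.619) and by 0.30 in CD11b-positive libraries (exact permutation p = 0.0635, adjusted p = 0.0847). The earlier batches held too few sham mice for the same comparison.

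**Figure D5:**
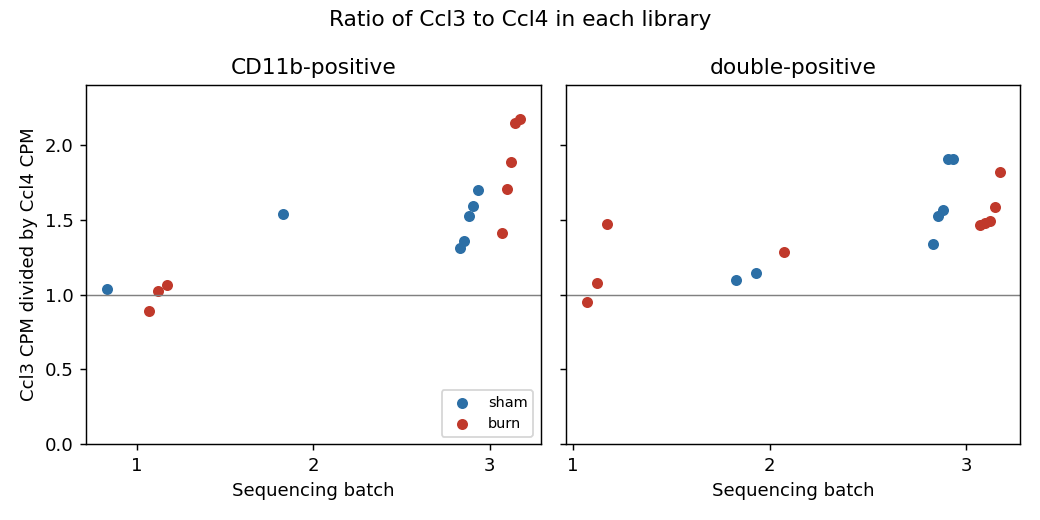
Ratio of Ccl3 to Ccl4, both in CPM, in each double-positive and CD11b-positive library, by sequencing batch and by burn or sham. Libraries of batch 3 lie between 1.31 and 2.17 and those of the earlier batches between 0.893 and 1.54.

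The immediate early genes, a list of 13 genes that respond fast to stimulation, were abundant in the microglia-rich libraries, at 18255 to 28323 CPM in CD11b-positive and 17545 to 30696 CPM in double-positive libraries, against 529 to 2396 CPM in ACSA2-positive libraries. These are levels after dissociation and sorting, and the part of that handling in them was not tested. Over the 15 CD11b-positive libraries their sum went with Ccl2 (r = 0.73, rho = 0.63, permutation p = 0.0021 and 0.013, adjusted p = 0.0066 and 0.024) and with Ccl3 (r = 0.64, rho = 0.71, permutation p = 0.011 and 0.0043, adjusted p = 0.022 and 0.016). Without the 2 farthest libraries r was 0.46 for Ccl2 and 0.60 for Ccl3. In batch 3 alone, r was 0.75 and 0.71 and rho 0.73 and 0.58, with adjusted p of 0.029 and 0.054 for r and 0.086 and 0.17 for rho by permutation. Ccl4, the other ligand set against this sum, had r = 0.54 and rho = 0.53 (permutation p = 0.039 and 0.046, adjusted p = 0.062 and 0.066), 0.54 without the 2 farthest libraries, and in batch 3 alone r was 0.55 and rho 0.48 (adjusted p = 0.17 and 0.25). In double-positive libraries r was 0.50 and rho 0.57 for Ccl3 (permutation p = 0.048 and 0.023, adjusted p = 0.072 and 0.035), 0.47 and 0.59 for Ccl2 (permutation p = 0.068 and 0.019, adjusted p = 0.089 and 0.03) and 0.42 and 0.46 for Ccl4 (permutation p = 0.11 and 0.076, adjusted p = 0.13 and 0.10). Without the 2 farthest libraries r was 0.60, 0.51 and 0.49 in that order, and in batch 3 alone it was 0.33, 0.19 and 0.39 (adjusted p = 0.41, 0.70 and 0.35 by permutation).

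For each ligand, the genes whose log2 CPM went most closely with it were found in the population where its median CPM was highest, after the mean of each batch had been taken out, as a description with no test. In 10 CaMKII positive libraries, Cxcl12 was most like Hspa12b (r = 0.98), Kdr (r = 0.98) and Slc1a1 (r = 0.97) among 17198 genes; Kdr encodes an endothelial receptor for vascular endothelial growth factor. In 16 double-positive libraries, the gene most like Ccl4 among 15140 was Ccl3 (r = 0.95), followed by A430078I02Rik (r = 0.88) and Ppil4 (r = 0.87). In the same libraries those most like Cxcl16 were Id2 (r = 0.95), Hcar2 (r = 0.90) and Ccrl2 (r = 0.89), and those most like Ccl12 were Arrb2 (r = 0.91), Smim10l1 (r = 0.83) and Zfp799 (r = 0.81). In 15 CD11b-positive libraries, Ccl2 was most like Nfkbid (r = 0.85), an inhibitor family member of the NF-kB pathway, Picalm (r = 0.85) and Coq10b (r = 0.85). Ccl3 was most like Arl8b (r = 0.91), Arl6 (r = 0.87) and Gm9517 (r = 0.87), with Ccl4 at rank 14 (r = 0.82). Ccl6 was most like Haus3 (r = 0.84), Gnas (r = 0.83) and Evi2a (r = 0.83), and Ccl9 was most like Ctbs (r = 0.89), Imp4 (r = 0.86) and Rab5a (r = 0.85). Cxcl10, highest in CaMKII positive libraries, was most like Tmem125 (r = 0.93), 2700054A10Rik (r = 0.91) and Lamc3 (r = 0.90) there. With so few libraries, many genes reach such values.

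Ccr1, Ccr2 and Cxcr3 had medians of 0 CPM in ACSA2-positive libraries, where both receptors of Cxcl12 were detected. Ccr1, a receptor of Ccl3, Ccl6 and Ccl9, had a median of 16.1 CPM in CD11b-positive, 12.5 in double-positive, 3.48 in CaMKII positive and 0 CPM in ACSA2-positive libraries. Ccr2, the receptor of Ccl2 and Ccl12, was 25.4 CPM in CD11b-positive and 9.39 CPM in double-positive libraries and 0 in ACSA2-positive ones. Cxcr3, the receptor of Cxcl10, had medians of 1.88 CPM in CD11b-positive, 1.34 in double-positive, 1.94 in CaMKII positive and 0 CPM in ACSA2-positive libraries. Cxcr6, the receptor of Cxcl16, had a median of 2.28 CPM in CaMKII positive libraries and 0 CPM in the other populations. Of the receptors of Cxcl12, Ackr3, which takes it up without G protein signalling, was highest in CaMKII positive libraries at 41.6 CPM, with medians of 14.3 CPM in ACSA2-positive, 2.94 in CD11b-positive and 2.32 in double-positive libraries. It was called as 5.23-fold higher in ACSA2-positive than in CD11b-positive libraries (log2FC = 2.39, SE 0.22, p.adj = 1.77e-11 by edgeR). Cxcr4 had medians of 17.7 CPM there, 13.9 in CD11b-positive, 7.73 in ACSA2-positive and 2.62 in double-positive libraries.

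Of 17 receptors tested between ACSA2-positive and CD11b-positive libraries, 13 were called lower and 0 higher in ACSA2-positive libraries by edgeR, and of 21 other ligands 6 were higher and 10 lower, where 32.4% of all genes were called higher and 21.8% lower. CaMKII positive libraries were higher than ACSA2-positive ones in 15 of 17 receptors and in 13 of 23 other ligands, against 12.7% of all genes. Between double-positive and CD11b-positive libraries, 6 of 17 receptors were lower in the former, against 1.98% of all genes, among them Cxcr2 (log2FC = −4.91), Ccr7 (log2FC = −2.95), Cxcr4 (log2FC = −1.53) and Ccr2 (log2FC = −1.53). Cxcr2 and Ccr2 are receptors of neutrophils and monocytes and Ccr7 of migrating dendritic cells and T cells. In the same comparison 4 of 22 other ligands were higher, against 5.6% of all genes, with Cxcl13 at a log2FC of 5.77, and 2 were lower, against 1.98%, with Pf4, a chemokine of platelets and border macrophages, at a log2FC of −1.35. In this comparison 0 of 13 early genes were called by edgeR or DESeq2, 0 having an unadjusted p under 0.05. The same lists, with 5 scavenging receptors, 3 proteases that shed or trim chemokines, 12 regulators such as NF-kB and interferon factors and the early genes, gave 0 calls between burn and sham mice by edgeR and 0 by DESeq2 in every population. By edgeR, 5 of 73 of these genes tested had an unadjusted p under 0.05 in CaMKII positive, 3 of 68 in double-positive, 8 of 55 in ACSA2-positive and 9 of 67 in CD11b-positive libraries, against 3.9%, 7.01%, 10.7% and 7.81% of all genes.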

How the data were processed

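Tissue was dissociated with a kit for neural tissue, myelin was removed with magnetic beads and live cells were sorted. RNA was extracted from sorted cells, depleted of ribosomal RNA and made into stranded libraries. The authors trimmed reads with fastp, used STAR for alignment to GRCm39 and GenomicAlignments for counting per gene, and deposited 1 table of raw counts per population, which is what was tested here. The deposited tables of normalised log2 values were not used, and 0 sample columns were left unmatched. In this work the counts were tested with edgeR 4.0.16 in R 4.3.3 (quasi-likelihood, TMM, genes with at least 10 counts in total, Benjamini-Hochberg over all genes tested), with DESeq2 1.42.0 as an alternative. Burn was compared with sham with batch as a covariate, and populations with batch and treatment. The SE of a log2FC was taken as its size over the root of the F statistic. Correlations used log2(CPM + 1), with exact or resampled permutation p-values, two-sided.

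The genes described, the marker and pathway lists and the tests were chosen with earlier results of these data known. The genes named are the 9 ligands in every comparison, their main receptors, some of the called genes of each pathway list (taken from the 4 with the highest mean CPM) and the 3 genes most like each ligand, with 1 gene of the lists not reported here. Libraries of the same mouse share a number, so populations are paired. The median correlation over mice of the deviations from group means was 0.10 between ACSA2-positive and CD11b-positive, 0.03 between CaMKII positive and ACSA2-positive, 0.12 between double-positive and CD11b-positive, and 0.08 between CaMKII positive and double-positive libraries. A fit with mouse as a block was the alternative.

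The other alternatives were size factors by relative log expression, all genes without a minimum count, a model without batch, batch 3 alone, all deposited libraries and each mouse left out in turn. Those without double-positive mice 2 and 10, without CaMKII positive mice 15 and 20 and, for ratios of summed counts, without the ACSA2-positive library with the most counts were added after seeing the data. When the counts of libraries were compared over 1953 pairs, chi-square was at least 14.1 times its degrees of freedom, so none was counted as a duplicate. Fitting was tested on simulated counts for burn against sham in CD11b-positive libraries and for CD11b-positive against ACSA2-positive and double-positive libraries. Changes were set at a log2FC of 1 or 2 in size, in genes above a minimum level. Changes as small as the burn estimates of the ligands in CD11b-positive libraries were not tried. Most changed genes passed the adjusted p, but in each case, with edgeR and with DESeq2, unchanged genes made up a larger share of those that passed than the threshold of 0.05 allows, so p.adj values close to it are less certain than they read. Separate mice are the replicates. Python 3.11.15, pandas 2.3.3, numpy 2.4.6, scipy 1.17.1 and matplotlib 3.10.9 made the tables and figures.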

Additional observations from a re-analysis of the deposited data

Results flagged for a closer look

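Of 72 groups of 4 to 9 libraries (9 ligands in 8 groups), 13 held a library whose gap to the next was large against the range of the group by Dixon's criterion. The criterion is made for normally distributed values, and several of these groups held mostly values at or near 0. How many groups chance alone would flag is therefore not known. In CaMKII positive libraries, sham mouse 15 stood above the other sham mice in Ccl9 (12.1 CPM) and Ccl12 (24.9 CPM). In double-positive libraries, burn mouse 10 stood out for Cxcl12 (181 CPM) and burn mouse 20 for Cxcl16 (124 CPM). In CD11b-positive libraries, burn mouse 7 stood out for Ccl4 (223 CPM) and burn mouse 2 for Cxcl10 (17.2 CPM). In ACSA2-positive libraries, burn mouse 2 had the highest Cxcl12 (442 CPM). The rest were the highest values of groups at or near 0: burn mouse 23 in Ccl2 (0.447 CPM), Ccl4 (0.203 CPM) and Ccl12 (0.569 CPM), sham mouse 16 in Ccl4 (4.72 CPM) and Cxcl16 (2.97 CPM), and sham mouse 19 in Ccl9 (0.437 CPM).

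For every ligand in every population, the library of mouse 3 was set against the highest sham library used. Values below the lowest sham library are not listed. This burn mouse, left out of the comparisons for skin ulceration, was above all sham libraries in 5 cases. Its double-positive library held 55.3 CPM of Ccl2, 297 CPM of Ccl4 and 28.2 CPM of Cxcl12, against at most 53.5, 292 and 19.6 CPM in sham mice. Its ACSA2-positive library held 512 CPM of Cxcl12 against at most 229 CPM. Its CD11b-positive library held 97.3 CPM of Ccl6 against at most 68.3 CPM, and 85.2 CPM in the burn mice used. These are single libraries with no test. With few sham libraries per population, a further library can be the highest by chance, so no excess is read from the 5 cases.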

How the results depend on the processing

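Over 138 alternatives, the number of the 9 ligands called changed in 0 of the 15 comparisons. Over 1211 alternatives of single ligands, 0 gained or lost a call and 57 changed sign, all of them values that were not called, and the cause was not tested. The replicate block, which pairs the libraries of a mouse, left 9, 9, 1 and 8 ligands called between populations and 0 in the interactions, while over all genes the calls between CaMKII positive and ACSA2-positive libraries went from 4978 to 3302, those between double-positive and CD11b-positive libraries from 2179 to 1092 and those of the burn effect between the latter from 0 to 17. The block also left out mice without both libraries (20 of 27 and 28 of 31 libraries remained), so pairing and fewer libraries cannot be told apart.

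With the replicate block, the log2FC of Ccl2 between double-positive and CD11b-positive libraries was 0.031, and the burn effect was 0.077 for Cxcl12 in CaMKII positive minus double-positive and 0.056 for Ccl3 in double-positive minus CD11b-positive libraries. In batch 3 alone, log2FC were 0.050 for Cxcl10 between burn and sham CaMKII positive libraries, −0.56 for Ccl9 in ACSA2-positive libraries, 0.032 for Ccl2 and −0.30 for Cxcl12 between double-positive and CD11b-positive libraries, and 0.022 for Cxcl10 between CaMKII positive and double-positive libraries. The burn effects in batch 3 alone were 0.071 for Ccl9 (CD11b-positive minus ACSA2-positive), 0.018 for Cxcl10 (CaMKII positive minus double-positive) and 0.040 for Ccl3 (double-positive minus CD11b-positive). With all deposited libraries, burn against sham gave 0.11 for Cxcl12 in CaMKII positive, 0.30 for Ccl6 in double-positive, and −0.020 for Ccl4 and 0.0072 for Ccl9 in CD11b-positive libraries, and Cxcl16 was −0.013 between double-positive and CD11b-positive libraries. Without a batch term, Ccl9 in CD11b-positive libraries was 0.076. With DESeq2 and with other size factors, Ccl9 in ACSA2-positive libraries was −0.10 and −0.017 between burn and sham, and Ccl6 in CD11b-positive libraries was 0.0075 under both between batches. Without mice 2 and 10, Ccl6 in double-positive libraries was −0.17 between batches.

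Leaving out 1 mouse at a time, burn against sham ranged over −0.97 to 0.038 for Cxcl10 and −0.18 to 0.25 for Cxcl12 in CaMKII positive libraries, over −0.018 to 0.34 for Ccl4, −0.11 to 0.0091 for Ccl6, −0.083 to 0.27 for Cxcl10 and −0.055 to 0.23 for Cxcl16 in double-positive libraries, over −2.50 to 3.36 for Ccl9 and −0.755 to 0.20 for Cxcl10 in ACSA2-positive libraries, over −0.097 to 0.18 for Ccl4 and −0.094 to 0.12 for Ccl9 in CD11b-positive libraries on the log2 scale.

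Over all genes, DESeq2 called 80 against 0 by edgeR between burn and sham CD11b-positive libraries, 27 against 0 in ACSA2-positive, 3 against 0 in CaMKII positive and 2 against 0 in double-positive libraries. Without a filter on low counts edgeR called 14 in double-positive and 4 in ACSA2-positive libraries, and with all deposited libraries 136 in double-positive libraries. DESeq2 called 618 against 288 between batches in ACSA2-positive, 424 against 104 in CD11b-positive and 118 against 0 in CaMKII positive libraries. It gave no adjusted p for 4 ligands between batches in ACSA2-positive libraries. Depth limits the 4 ligands with at most 41 counts in ACSA2-positive libraries, from which no effect of the burn is read.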
